A study of Mus musculus with 10 samples.

Results

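The cytosolic ribosomal protein genes, which encode the protein part of the ribosomes that translate nuclear mRNAs, were examined in spontaneous lymphomas of mice that carry 1 allele for the LIP isoform of C/EBPβ and in lymphomas of wild type mice. Members were all non-control array probes whose gene name is Rpl or Rps followed by a digit, or Rplp0, Rplp1, Rplp2 or Rpsa, without the S6 kinases and Rps19bp genes. The rule found 142 of 41174 probes, which carry 83 of the 27827 gene names on the array. All 83 genes kept at least 1 probe after the filter on dim probes, through 137 of the 142 probes.

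The samples were 5 lymphomas from heterozygous (+/L) mice, numbers 20, 866, 688, 23 and 517, and 5 lymphomas from wild type (+/+) mice, numbers 40, 11, 101, 17 and 19. Each tumour was hybridised to 1 single-colour Agilent mouse array. No mouse was treated; animals of both genotypes were kept until a palpable lymphoma appeared, so age was not matched: it averaged 18 ± 4.06 months in +/L mice (range 11 to 21) and 24.9 ± 3.47 months in +/+ mice (range 20 to 29; SD, n = 5 each). LIP is the short form of the transcription factor C/EBPβ, made from a downstream start codon and lacking the activation domains. The labels do not describe how the L allele was built, and the tumour samples hold whatever host cells the dissected lymphomas contained. In such bulk RNA, fewer cells of a type and less RNA per cell cannot be told apart.

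Ribosomal proteins are needed in near-equal numbers to build ribosomes, and their mRNAs are among the most abundant in growing cells. In mammals these mRNAs begin with a run of pyrimidines at the very 5′ end, through which the mTORC1 pathway and the RNA-binding protein LARP1 control their translation. Translation control of this kind does not by itself alter the mRNA level that an array reads. Several members also act outside the ribosome, such as RPL5 and RPL11, which bind and inhibit MDM2 when ribosome assembly is disturbed.

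The pyrimidine run is the sequence feature that the gene rule did not use, so it is shown here for members discussed below. A window of 30 bases around each RefSeq transcription start in GRCm38.p6 (15 before it and 15 from it on) was searched on the gene's own strand for the longest unbroken run of C or T. RefSeq promoter sequences were matched by symbol for 62 of the 83 members. A run of at least 7 pyrimidines was present in 34 of these 62 genes (54.8%), against 21.2% of 26963 other genes. For genes with several starts the longest run was taken. The count takes a run anywhere in the window, so it does not show that the mRNA begins with it. In Rpl13, Rpl4, Rpl31, Rps15a and Rps25 the run lies wholly upstream of the annotated start, and in Rps19 and Rps12 it lies some bases after it. In the lines that follow, 5′ to 3′, capitals mark the longest run of each window.
Rps6 (chr4:86857353-86857382, minus strand): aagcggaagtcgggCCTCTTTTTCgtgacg
Rps9 (chr7:3704026-3704055, plus strand): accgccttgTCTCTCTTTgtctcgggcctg
Rps27 (chr3:90213634-90213663, minus strand): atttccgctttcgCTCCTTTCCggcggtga
Rpl28 (chr7:4792950-4792979, plus strand): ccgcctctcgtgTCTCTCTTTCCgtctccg
Rplp2 (chr7:141447636-141447665, plus strand): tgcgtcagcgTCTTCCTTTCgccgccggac
Rpl22l1 (chr3:28805493-28805522, plus strand): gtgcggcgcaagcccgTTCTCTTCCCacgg
Rplp0 (chr5:115559452-115559481, plus strand): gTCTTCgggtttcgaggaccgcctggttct
Rpl5 (chr5:107900513-107900542, plus strand): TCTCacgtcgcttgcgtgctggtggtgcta
The first 6 windows hold a run across or beside the annotated start, whereas those of Rplp0 and Rpl5 hold shorter runs upstream of it. No match says only that these letters are not in this window, since an annotated start can lie some bases from the one used. Genes with and without the run had close medians, of which no test was made: the median log2 difference between genotypes (+/L minus +/+) was -0.14 for the 34 genes with it and -0.21 for the 28 without it, and the median SD over the 10 tumours was 0.39 in both.

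Each level is the log2 ratio of a probe's processed signal to the 75th percentile of its array, and 1 probe (the brightest on average) stands for each gene. The ribosomal protein genes lay at the top of every array. Of the 83 genes, 81 were well above background on all 10 arrays, 76 lay above the 95th percentile on all 10, and 78 belonged to the brightest 10% of the 17822 genes tested. The median of the genes' mean levels was 7.66, and 8.03 for the 32 small-subunit and 7.37 for the 51 large-subunit genes. Signal on an array also depends on the probe, so these figures place the genes within the array and do not rank their mRNAs.

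The 7 genes outside that upper range on at least 1 array were Rpl14, Rpl21, Rpl27a, Rpl31, Rpl39l, Rpl3l and Rpl7l1. Of these, Rpl39l and Rpl3l are paralogs best known from testis and striated muscle. For Rpl3l, 4 of 5 +/L arrays and 3 of 5 +/+ arrays had a spot well above background, and for Rpl39l 4 of 5 arrays of each genotype did. For Rpl39l the values were -2.06, -1.81, -3.66, -5.73 and -2.75 in +/L mice 20, 866, 688, 23 and 517, against -2.57, -3.31, -3.12, -6.19 and -3.26 in +/+ mice 40, 11, 101, 17 and 19. A single tumour of each genotype was lowest, mice 23 and 17, and the groups overlapped throughout. All later lists of values keep this order of mice.

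**Figure D1:**
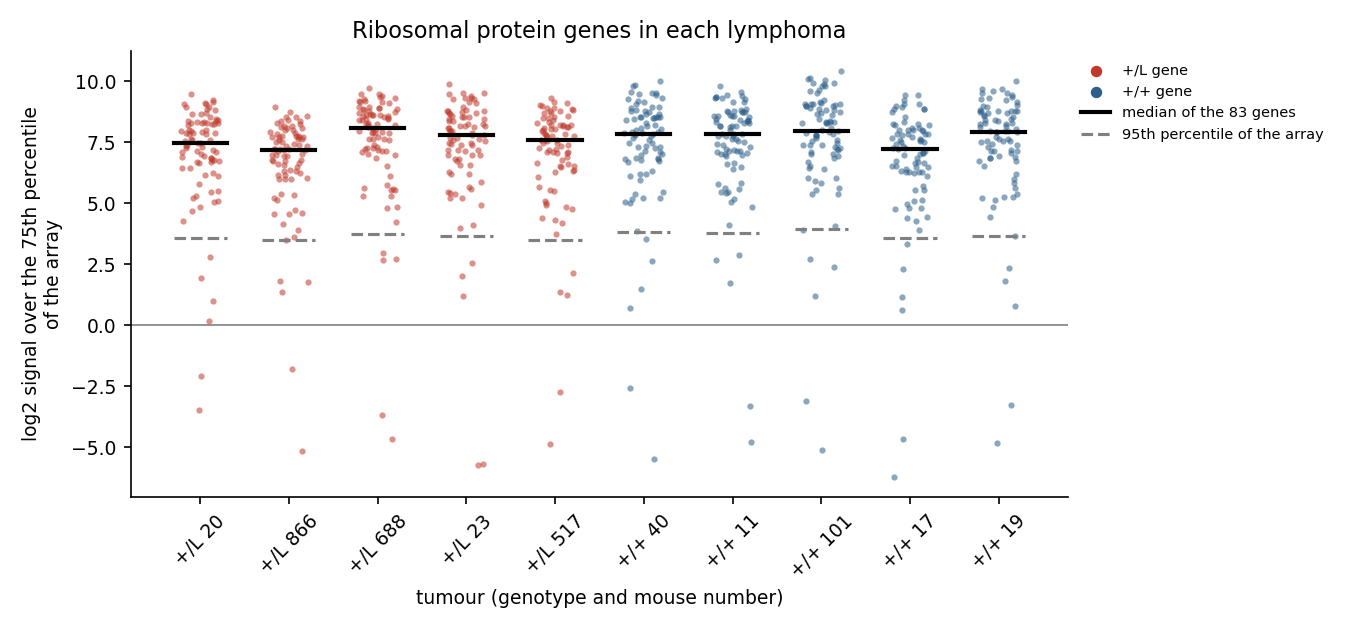
Level of each of the 83 ribosomal protein genes (points) in each lymphoma, as log2 signal over the array's 75th percentile (y axis), with +/L tumours on the left; black bars are the median of the 83 genes and dashed bars the array's 95th percentile. In every tumour 77 or 78 of the 83 genes lie above the dashed bar, and the medians are lowest in +/L mouse 866 and +/+ mouse 17.

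The family took a nearly equal share of the signal in both genotypes. Summed on the linear scale, it made up 14.9 ± 1.72% of the processed signal of all 17822 genes in +/L tumours (12.7 to 17.0%) and 14.9 ± 1.45% in +/+ tumours (12.6 to 16.6%; SD, n = 5 each). The median of the 83 genes in each tumour was 7.48, 7.16, 8.07, 7.80 and 7.58 in +/L tumours, against 7.85, 7.81, 7.97, 7.23 and 7.90 in +/+ tumours. The highest tumour was +/L mouse 688, the lowest were +/L mouse 866 and +/+ mouse 17, and the groups overlapped. Mice 866 and 17 are also the 2 arrays for which the slide in the sample description differs from the slide in the file header, with the 2 slides exchanged between them. Whether the arrays themselves were exchanged, and with them the genotypes, cannot be settled from these files, and values without both mice are given with the results.

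The genes moved together from tumour to tumour. The median SD of a member over the 10 tumours was 0.39, against 0.56 for all genes and 0.42 for the 1705 other genes of the brightest 10%. After the tumour's own family median was taken out, the median SD was 0.21 for the members, while it was 0.35 for the other bright genes after their own tumour median was taken out. The median correlation between 2 members was 0.75 over the 10 tumours and the first principal component held 59.8% of the members' variance. These values are descriptions: all genes of an array share its scaling, and after quantile normalisation the median correlation was 0.32.

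Among the steadiest genes were Rps9 and Rps27a, both of the small subunit; Rps27a is translated as a fusion with ubiquitin. Rps9 had 6.43, 6.37, 7.11, 6.74 and 6.63 in +/L tumours, against 6.80, 6.62, 6.93, 6.23 and 6.74 in +/+ tumours, an SD of 0.26 over the 10. It averaged 6.66 ± 0.29 in +/L tumours and 6.67 ± 0.27 in +/+ tumours (SD over 5 mice). It is named here for its low SD over all tumours, and in the deposited table of log2 values its difference was 0.41 ± 0.13 (SE; limma, adjusted p = 0.40). The most variable were Rpl39l (SD 1.45), Rpl21 (0.90) and Rpl31 (0.71).

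Whether the genotypes differ in these mRNAs was asked with limma across all 17822 genes, on 5 +/L and 5 +/+ tumours. No member passed an adjusted p of 0.05 by Benjamini-Hochberg (lowest adjusted p = 0.54), nor did any gene in the whole table (0%; lowest adjusted p = 0.083). At an unadjusted p under 0.05, 3 members were lower in +/L tumours (Rpl21, Rpl37a and Rplp0), 3.61% of the members, against a background of 5.41% of all genes, and 0 members were higher, against 3.14%. For 0 members did all +/L values lie beyond all +/+ values, against 1.26% of all genes that lay wholly lower and 0.55% wholly higher. The members' counts are thus no larger than those of all genes. Of the 1705 other bright genes, 14.1% were lower and 0.997% higher at that unadjusted p by limma. Among these, 70 lay wholly lower and 4 wholly higher. The replicates are separate mice, and the array number limits the precision.

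In size, the members' median log2 difference (+/L minus +/+) was -0.19, with quartiles of -0.38 and 0.03. Of the 83 genes, 22 had a difference above 0 and 61 below it, while 48.1% of all genes lay above 0. It was -0.21 for the 32 small-subunit genes, 7 of them above 0, and -0.17 for the 51 large-subunit genes, 15 of them above 0. The same lean was present in bright genes at large: the median difference went down over 10 equal classes of all genes by level, with 0.31 in the dimmest and -0.23 in the brightest, and was -0.23 in the 1705 bright genes outside the family. The distance between the 95th and the 75th percentile of the arrays was likewise 3.59 ± 0.10 in +/L and 3.75 ± 0.13 in +/+ arrays (log2; SD, n = 5 each).

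**Figure D2:**
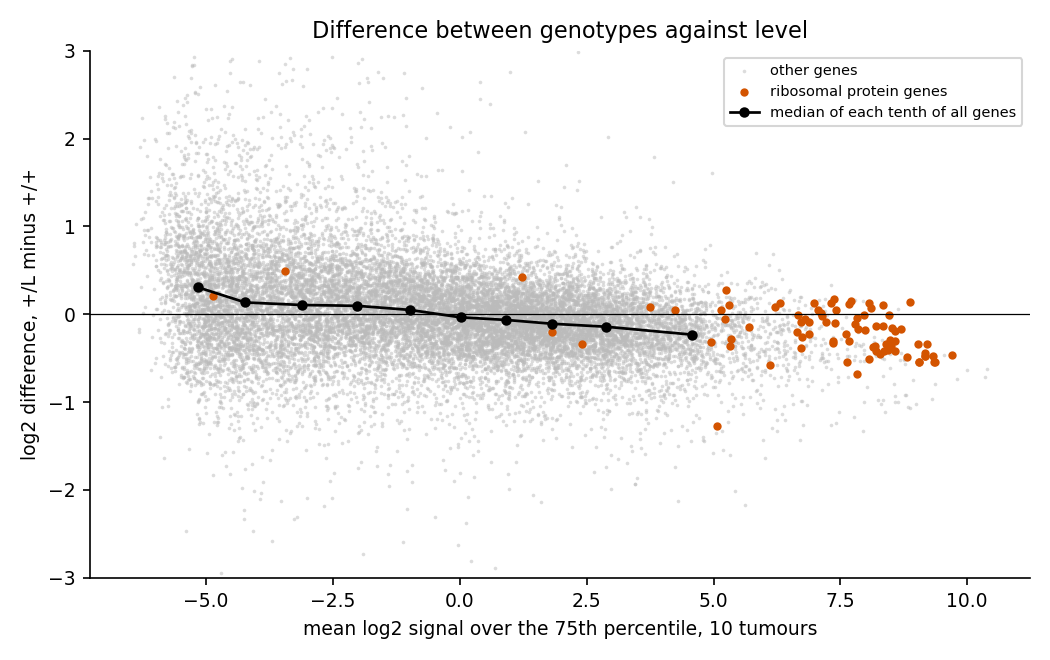
Log2 difference between genotypes (+/L minus +/+, y axis) against mean log2 signal over the 75th percentile in the 10 tumours (x axis) for all 17822 genes; orange points are the 83 ribosomal protein genes and black points the median of each of 10 equal classes of all genes by level, and 28 genes lie beyond the axis limits of 3. Most members sit at the right, below 0, where the medians of all genes also fall below 0.

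The direction of the family turned with the scaling between arrays. Its median difference was -0.19 with the 75th percentile, -0.15 with the median of well-measured probes and -0.04 with the 95th percentile. It was 0.12 after quantile normalisation, 0.16 after normexp background correction with quantile normalisation and 0.25 in the deposited table of log2 values, where 68 of the 83 genes lay above 0 (49.5% of all genes did). The 1705 other bright genes had medians of -0.02, -0.02 and 0.01 in those last 3 settings.

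In the deposited table of log2 values, 29 members (34.9%) were higher in +/L tumours at an unadjusted p under 0.05 by limma and 1, Rpl21, was lower. The background there was 3.89% of all genes higher and 5.54% lower, and 9.56% of the 1705 other bright genes were higher. After normexp and quantile normalisation 16 members were higher (background 3.5%, and 7.68% of the other bright genes). After quantile normalisation of the processed signal 8 were (background 2.84%, and 4.11% of the other bright genes). No member passed the adjusted threshold in any of these (0.00561% of all genes, 1 gene, in the deposited table), with a lowest adjusted p of 0.32 in the deposited table. There, 8 members had all +/L values above all +/+ values, against 0.774% of all genes, and 0 the reverse, against 1.39%. Of the 1705 other bright genes, 41 lay wholly higher and 23 wholly lower.

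The member of lowest p in the deposited table was Rps27l, the p53-induced paralog of Rps27. Its deposited log2 values were 14.33, 14.14, 14.01, 14.10 and 13.96 in +/L tumours, against 13.47, 13.92, 13.57, 13.48 and 13.40 in +/+ tumours. Every +/L tumour lay above every +/+ tumour, and the log2 difference was 0.54 ± 0.12 (SE; limma, adjusted p = 0.32). With the 75th percentile the values of Rps27l were 5.77, 5.21, 5.53, 5.39 and 4.99 in +/L tumours, against 5.06, 5.47, 5.39, 4.78 and 4.85 in +/+ tumours. There the groups overlapped, with a difference of 0.27 ± 0.22 (SE; limma, adjusted p = 0.75).

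Rps25, a small-subunit protein needed by some internal ribosome entry sites, was another of the 8. Its deposited values were 16.34, 16.20, 16.47, 16.22 and 16.47 in +/L tumours, against 15.97, 16.04, 15.54, 15.70 and 15.91 in +/+ tumours, a difference of 0.51 ± 0.12 (SE; limma, adjusted p = 0.32). With the 75th percentile they were 7.84, 7.34, 8.20, 7.80 and 7.71 in +/L tumours, against 7.81, 7.75, 7.81, 7.05 and 7.71 in +/+ tumours, and the groups overlapped.

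**Figure D3:**
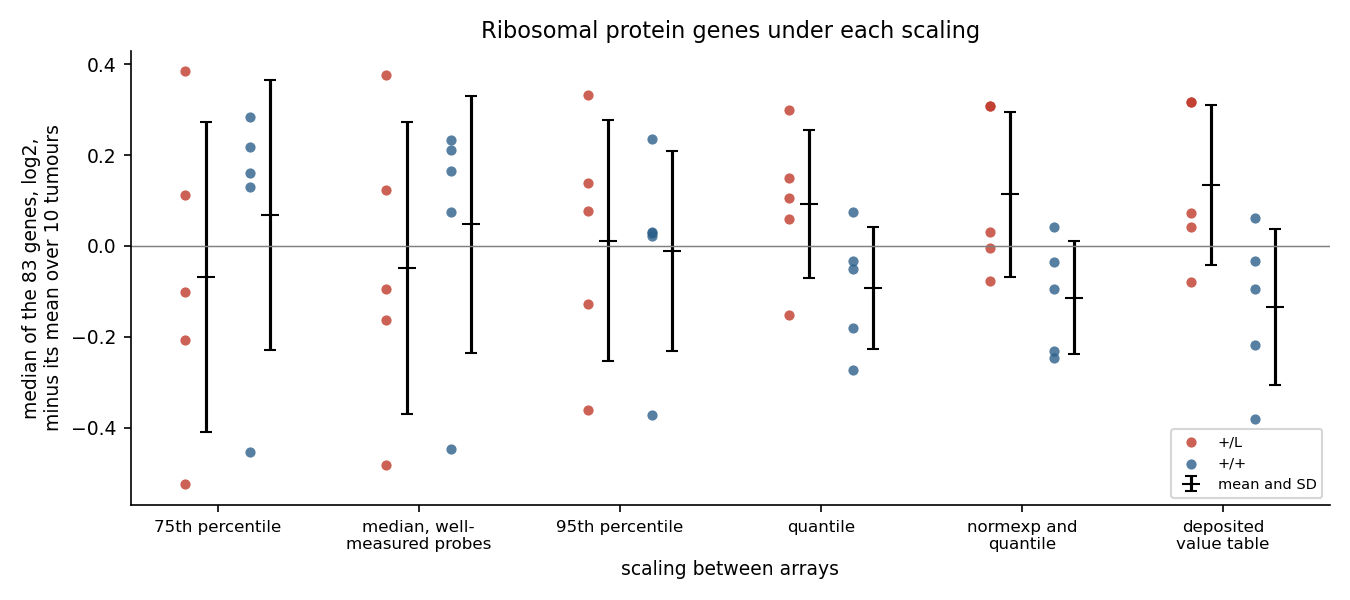
Median of the 83 genes in each tumour under 6 scalings between arrays (x axis), as log2 value minus its mean over the 10 tumours (y axis); points are tumours, +/L left of +/+, and black bars are the mean and SD of each group. The +/L mean lies below the +/+ mean with the 75th percentile and the median of well-measured probes and above it with the other 4, and the points of the groups overlap under all 6.

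The family's difference also varied by slide, with age in the fit and with single tumours left out. By the slide in the file headers, the median difference was 0.25 on slide 1 (2 +/L and 2 +/+ arrays), -0.24 on slide 2 (2 and 1) and -0.90 on slide 3 (1 and 2), where mouse 866 is the only +/L array. Slide 1 holds +/L mouse 688, the tumour of highest family median (8.07), and +/+ mouse 17, the lowest +/+ tumour (7.23). Slide and single tumours therefore cannot be told apart here. Over all 10 arrays the median difference was -0.19 without a slide block. It was -0.22 with this slide as a block and -0.27 with the slide of the descriptions as a block. With age as a covariate it was 0.22, and 65 of 83 genes were above 0 (54.5% of all genes), with 0 members at an unadjusted p under 0.05 (background 3.77% lower and 2.19% higher). Age and genotype overlapped little, and the part of age was not tested beyond this fit.

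Without +/+ mouse 17 the median difference was -0.34. Then 16 members (19.3%) were lower at an unadjusted p under 0.05 by limma, against 5.87% of all genes and 17.5% of the other bright genes. All +/L values lay below all +/+ values for 13 members, against 2.97% of all genes and 165 of the 1705 other bright genes. Without +/L mouse 866 the median difference was -0.07. Without both mice it was -0.22. Then 1 member was lower at an unadjusted p under 0.05 by limma, against 4.51% of all genes and 12.1% of the other bright genes. The groups did not overlap for 13 members, all lower in +/L, against 4.05% of all genes and 196 of the 1705 other bright genes. For 2 of the 10 arrays, mice 20 and 11, sex-linked genes went against the labelled sex; without both, the median difference was -0.17.

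Taking out the family's median in each tumour leaves how the genes differ from one another. On this scale 62 of the 83 genes differed between genotypes by less than 0.3. The lowest adjusted p was 0.91 by limma, and 2 genes, Rpl21 and Rpl28, were lower at an unadjusted p under 0.05 (background 2.22%), while 0 were higher (background 2.94%). All +/L values lay below all +/+ values for Rpl19, Rpl23a, Rplp2 and Rps16 (background 0.679%) and above them for Rpl17, Rpl34 and Rps25 (background 0.325%). Of the 1705 other bright genes, 58 lay wholly lower and 7 wholly higher on this scale. At an unadjusted p under 0.05 by limma, 7.86% of them were lower and 1.11% higher. For Rplp2 the groups were barely apart, with 1.499 in +/L mouse 517 and 1.509 in +/+ mouse 11. The members set this scale themselves, so their spread on it is smaller than that of other genes. The sign of the difference was the same for 55 genes, 31 lower and 24 higher, with quantile normalisation, normexp with quantile normalisation, the deposited table, age as a covariate and the slide block.

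Among the stalk proteins, which recruit the translation factors that hydrolyse GTP, Rplp0, Rplp1 and Rplp2 were all on the lower side. Rplp0 had 8.95, 8.17, 8.91, 9.10 and 8.77 in +/L tumours, against 9.31, 9.13, 9.92, 9.05 and 9.20 in +/+ tumours. The groups overlapped only in that +/L mouse 23 lay above +/+ mouse 17, and the difference was -0.54 ± 0.24 (SE; limma, adjusted p = 0.58). Relative to the family the differences were -0.41 for Rplp0, -0.40 for Rplp1 and -0.31 for Rplp2, and in the deposited table they were -0.07, -0.10 and -0.04. Without that centring the sign turned in the deposited table, to 0.19 for Rplp0, 0.17 for Rplp1 and 0.22 for Rplp2.

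The 5S particle genes Rpl5 and Rpl11, whose proteins bind MDM2, had groups that overlapped. Rpl5 had 8.23, 8.07, 8.94, 8.38 and 8.33 in +/L tumours, against 8.28, 8.75, 8.28, 7.69 and 8.42 in +/+ tumours, with a difference of 0.11 ± 0.24 (SE; limma, adjusted p = 0.92). In the deposited table it was 0.68 ± 0.22 (SE; limma, adjusted p = 0.40). Relative to the family it was 0.24 with the 75th percentile and 0.41 in the deposited table. Rpl11 had a difference of -0.05 ± 0.24 (SE; limma, adjusted p = 0.97), and of 0.38 in the deposited table. Relative to the family it was 0.09 with the 75th percentile and -0.20 with age as a covariate.

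Of the small-subunit genes with named roles, Rps6, the substrate of the S6 kinases, averaged 6.38 ± 0.38 in +/L tumours and 6.25 ± 0.42 in +/+ tumours (SD over 5 mice), a difference of 0.13 ± 0.26 (SE; limma, adjusted p = 0.92). Rps19, mutated in human Diamond-Blackfan anaemia, had a difference of -0.42 ± 0.34 (SE; limma, adjusted p = 0.75). In the deposited table the difference was 0.54 ± 0.20 for Rps6 (SE; limma, adjusted p = 0.46) and -0.04 for Rps19. Rpsa, also known as the laminin receptor, had 5.45, 5.38, 6.50, 6.18 and 5.65 in +/L tumours, against 6.12, 6.63, 6.70, 5.70 and 6.91 in +/+ tumours. Its groups overlapped, the difference was -0.58 ± 0.31 (SE; limma, adjusted p = 0.63), and relative to the family it was -0.44 with the 75th percentile and -0.46 in the deposited table.

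Rpl28, a large-subunit gene, had 7.57, 6.75, 8.10, 7.94 and 7.11 in +/L tumours, against 7.90, 8.58, 8.61, 7.50 and 8.28 in +/+ tumours. The groups overlapped, with a difference of -0.68 ± 0.32 (SE; limma, adjusted p = 0.59). Relative to the family it was -0.54 with the 75th percentile, -0.50 in the deposited table and -0.26 with age as a covariate. Rps2, of the small subunit, had a difference of -0.54 with an adjusted p of 0.59 by limma, and of 0.25 in the deposited table. Rps4x, the X-linked S4 gene, had a difference of -0.41 with an adjusted p of 0.66 by limma.

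Pairs of a canonical gene and its paralog were read side by side, each from its own probe and without comparing levels between them. Rpl22, whose loss impairs T-cell development in mice, had a difference of 0.13 ± 0.24, and Rpl22l1, which RPL22 protein represses in mice, had 0.10 ± 0.32 (SE; limma, adjusted p = 0.90 and 0.94). In the deposited table Rpl22 had 0.53 ± 0.18 (SE; limma, adjusted p = 0.42) and Rpl22l1 0.44. Rps27 had -0.17 and Rps27l 0.27. Rpl3 had -0.20 and Rpl3l 0.21, Rpl39 -0.02 and Rpl39l 0.49, and Rpl7 -0.17 and Rpl7l1 -0.33, each with an adjusted p of 0.70 or more by limma. In all of these the groups overlapped with the 75th percentile; after quantile normalisation Rps27 turned to 0.26, Rpl3 to 0.08, Rpl39 to 0.26, Rpl7 to 0.18, Rpl3l to -0.47 and Rpl39l to -0.003, next to 0. Rpl10, mutated in some human T-cell leukaemias, had -0.33 (limma, adjusted p = 0.71) and 0.11 in the deposited table. Its tested probe is placed by the files on chromosome 8 and not on X, where RefSeq places the gene. A second bright Rpl10 probe, placed on X, had a like difference of -0.32 (limma over all probes, adjusted p = 0.74).

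**Figure D4:**
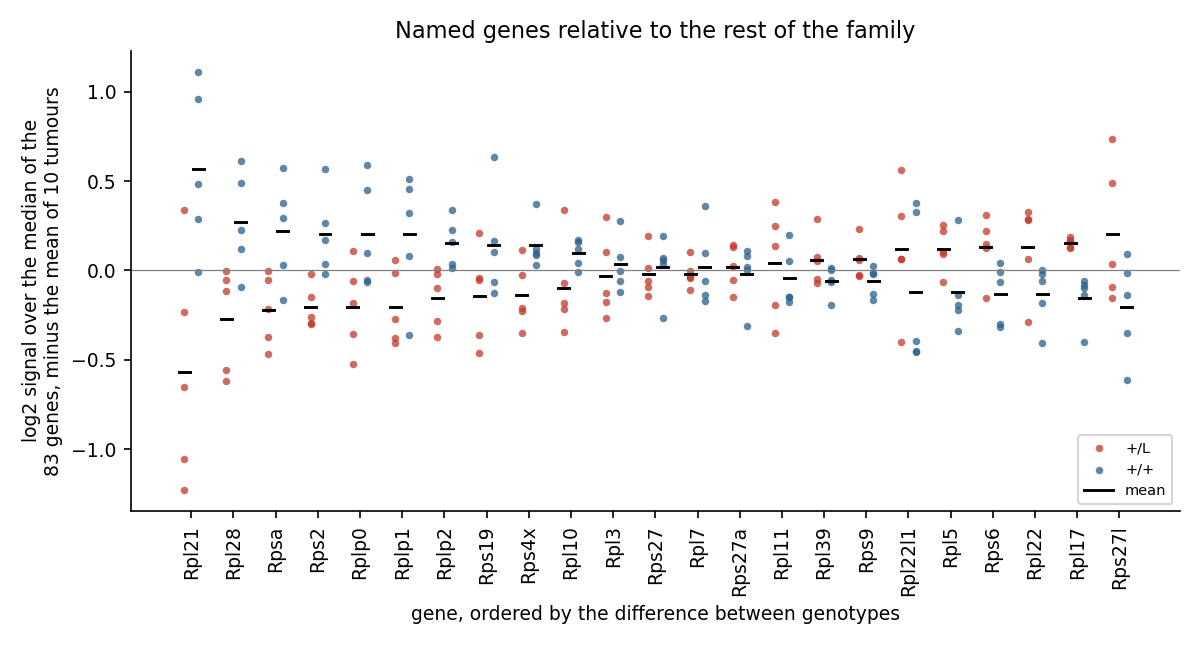
For 23 of the named genes with a mean level above 5 (x axis, ordered by the difference between genotypes), log2 signal over the median of the 83 genes in the same tumour, minus its mean over the 10 tumours (y axis); points are tumours, +/L left of +/+, and bars are means. Rpl21 lies apart at the left with a difference of -1.13, and all +/L points lie below all +/+ points for Rplp2 and above them for Rpl17.

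Rpl21, a large-subunit gene with mutations in a human hair loss disorder, had the largest difference of the family. Its values were 5.19, 3.48, 4.21, 4.94 and 4.31 in +/L tumours, against 6.18, 5.48, 6.46, 5.09 and 5.27 in +/+ tumours. The groups overlapped only in that +/L mouse 20 lay above +/+ mouse 17, and the difference was -1.27 ± 0.38 (SE; limma, adjusted p = 0.54). It stayed below 0 with quantile normalisation (-1.05), in the deposited table (-0.92) and with age as a covariate (-0.40). The probe lies at chr5:147644677-147644736 (mm9, plus strand), begins at base 86 of a cDNA clone record and is 75% G and C. A second, dim Rpl21 probe further along the RefSeq mRNA, with 41.7% G and C, had a difference of 0.16 (limma over all probes, adjusted p = 0.93).

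No other member's tested probe was above 55% G and C, and base composition ran along with the difference in bright probes outside the family as well. Among other probes with a mean level above 5, the median difference was -0.18 for 141 probes with up to 40% G and C, -0.42 for 163 probes with over 50 and up to 55%, and -0.99 for 40 probes above 55%. Among the members' tested probes it was -0.05 for 17, -0.28 for 23 and -1.27 for Rpl21 alone. Over the 83 tested probes the correlation of G and C content with the difference was -0.35, a description over probes that share the same 10 arrays. The part of base composition in the Rpl21 difference was not tested further.

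Different probes of 1 gene mostly gave like differences when both were bright. Over the 21 genes with at least 2 probes above a level of 5, the median range of the difference among a gene's probes was 0.08. Over all 41 genes with at least 2 kept probes, dim ones included, 15 had probes whose differences had opposite signs.

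The family also has dim probes. The 23 kept member probes with a mean level under 2, among them the tested probes of Rpl14, Rpl31, Rpl39l and Rpl3l, had a median SD over the tumours of 0.90. Of the 23, 18 had a difference above 0, and the median over the 23 was 0.29. In the 10 classes of all genes by level, the share above 0 was 68.1% in the dimmest and 36.6% in class 8 (median level 1.82). Among the 23 probes, 6 for clone or EST records named Rpl11, Rpl13, Rps12, Rps13, Rps24 and Rps28 varied together. These 6 were picked after their values were seen, and no test was made of them. All 6 had a difference above 0 (0.45 to 0.67), so the 18 are not separate results. Their median deviation from the probe mean was -0.64, 1.20, -1.35, 0.52 and 1.71 in +/L tumours, against -1.77, 0.50, -0.14, 0.23 and -0.31 in +/+ tumours. They were highest in +/L mice 517 and 866 and lowest in +/L mouse 688 and +/+ mouse 40. Over the 10 tumours the 6 correlated with each other at 0.91 to 0.98, and with the brightest probe of their own gene at -0.56 to -0.27. What these records contain beyond the gene name was not analysed here.

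**Figure D5:**
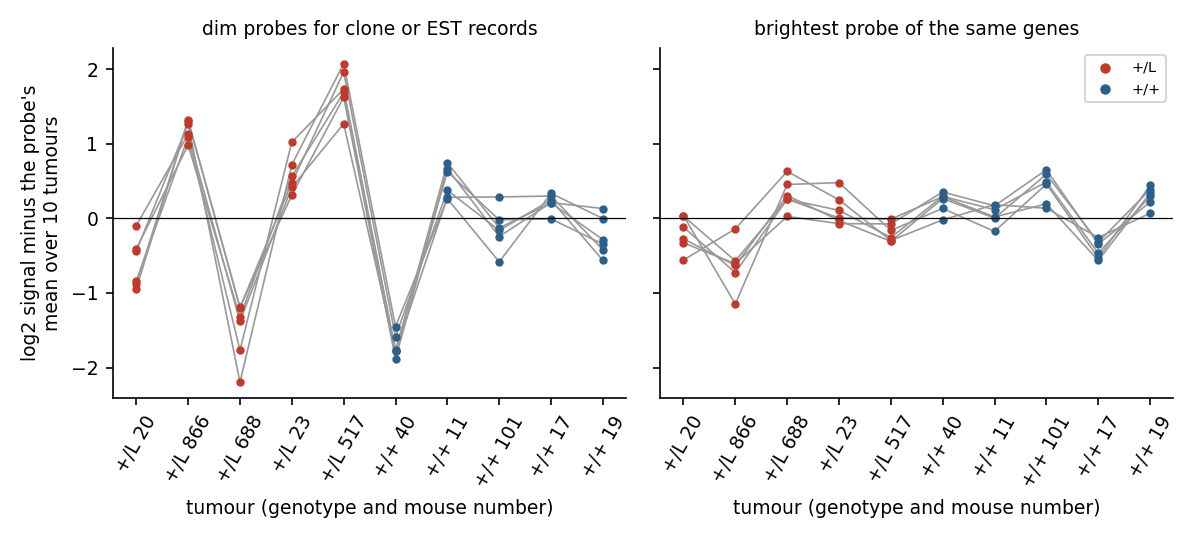
Log2 signal minus the probe's mean over the 10 tumours (y axis) in each tumour (x axis, +/L left of +/+) for the 6 dim probes of Rpl11, Rpl13, Rps12, Rps13, Rps24 and Rps28 (left) and the brightest probe of the same genes (right); lines join 1 probe. The dim probes span about -2.20 to 2.08 and peak in +/L mouse 517, whereas the bright probes of these genes stay closer to 0.

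Genes that work with the ribosome were read from lists that were not picked by direction. None of their members passed the adjusted threshold. Of 34 translation factors, 26 were lower and 8 higher in +/L tumours, with a median difference of -0.26 with the 75th percentile and 0.09 in the deposited table. Of these 34, 26 belong to the brightest of the 10 classes by level, in which 23.6% of genes were higher. Over all genes 48.1% were higher, and the counts of the lists below stand beside the same shares. Eef1a1, which brings aminoacyl-tRNA to the ribosome, ranged over 6.81 to 7.59 in +/L tumours, against 7.37 to 8.04 in +/+ tumours. Its groups overlapped, with a difference of -0.49 ± 0.21 (SE; limma, adjusted p = 0.57), and Eif3c and Eif3f, of the initiation factor that binds the small subunit, had -0.74 and -0.65 (limma, adjusted p = 0.57 and 0.59).

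Ribosome biogenesis genes had a median difference of -0.10 over 38 genes, 23 lower and 15 higher, and of 0.01 in the deposited table. Sbds, which helps to release eIF6 from the large subunit, had 0.44, Nol6 -0.55 and Dkc1, the pseudouridine synthase of the H/ACA particles, 0.71 (limma, adjusted p = 0.57, 0.59 and 0.59). The 75 mitochondrial ribosomal protein genes, which serve the separate ribosome of mitochondria, had a median difference of -0.01, 39 lower and 36 higher, and of 0.11 in the deposited table. Of 10 p53 response genes 5 were lower and 5 higher; those with the lowest p were lower. Cdkn1a, the cell cycle inhibitor p21, had -1.15, Zmat3 -0.76 and Phlda3 -0.64 (limma, adjusted p = 0.57, 0.57 and 0.67). Of the higher ones, Trp53inp1 had 0.53 and Mdm2, the ligase that RPL5 and RPL11 bind, 0.31 (limma, adjusted p = 0.78 and 0.76).

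Lymphoid markers were present in all tumours: 9 of 10 B-cell and all 10 T-cell genes of the lists were well above background on all 10 arrays. The tumours' cell content varied beside the family. A tumour's score for B-cell genes (mean deviation of 10 genes) ranged over -1.75 to 1.01 in +/L and -0.05 to 0.39 in +/+ tumours, lowest in mouse 866, whose family median was lowest as well. The score for T-cell genes ranged over -1.87 to 0.74 in +/L and -0.82 to 1.52 in +/+ tumours, lowest in mouse 20 and highest in mouse 19. Adipocyte genes (5 of 7 tested, 2 of them well above background on all arrays) ranged over -1.94 to 4.46 in +/L and -3.07 to 2.15 in +/+ tumours, and myeloid genes over -0.67 to 1.24 and -1.23 to 1.43. All 5 adipocyte genes had a difference above 0 (48.1% of all genes did), with a median of 3.44. Of the 5, 3 were higher at an unadjusted p under 0.05 by limma (background 3.14%) and 0 after adjustment. Cfd, the fat-cell protease adipsin, had 5.03 (limma, adjusted p = 0.56). Over the 10 tumours the family median correlated with these scores at 0.65 for B-cell, 0.40 for T-cell, 0.10 for adipocyte and -0.60 for myeloid genes, as a description. With the scores of the remaining marker lists it correlated at 0.51 for mitosis, 0.46 for acinar, -0.13 for erythroid, -0.14 for plasma cell and -0.30 for stroma genes. Their part in the family's values was not tested.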

How the data were processed

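The 10 arrays gave an intensity per spot, which the authors extracted, per the file headers, with version 10.5.1.1 of Agilent Feature Extraction. A deposited table of log2 values was made by the authors from the same 10 arrays, by a normalisation not given in the sources used. Depth is an array's brightness: the 75th percentile of the processed signal was 434 ± 129 in +/L and 288 ± 61.1 in +/+ arrays (SD, n = 5 each), and 59.9% and 59.3% of spots were well above background.

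From these files, the processed signal was divided by the array's 75th percentile and put on the log2 scale. Control spots and outlier-flagged spots were left out (121 probes), spots of a probe were averaged, and a probe was kept if at least 3 of 10 arrays had it well above background (26421 probes). The brightest probe stood for each of 17822 gene names of the files. Genotypes were compared with limma 3.58.1 in R 4.3.3 (lmFit and eBayes), with Benjamini-Hochberg adjustment over all genes. Alternatives varied background correction (normexp, offset 50), scaling, filter, probe choice, slide and age. Members and lists were chosen with earlier results of these data known. Named genes were fixed names (stalk, 5S particle, genes with known extra roles, paralog pairs), the 5 largest differences each way and the 3 highest and lowest SDs; Rpl37a, Rps25 and the genes whose groups separate were named after their values were seen, and some results are not reported here. Of the members, 82 of 83 names matched RefSeq (GRCm38.p6); probe coordinates are those of the files (mm9).

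Tested on simulated data with the same 17822 genes and 5 with 5 arrays, the fit recovered 16.5%, 59.5% and 81.5% of genes given a log2 difference of 1, 2 and 3. In each of 5 runs 200 genes were changed, and 6.6% of the calls were false. Each gene was drawn independently with its own SD within genotype, whereas the members vary together. The rates are thus over all genes and were not obtained for this family.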

Additional observations from a re-analysis of the deposited data

Results flagged for a closer look

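Within each genotype, the lowest or highest of the 5 tumours was compared with the gap to its nearest neighbour (Dixon's criterion, 0.71 for 5 samples) for the family median and the 29 named genes, 60 groups in all, of which chance marks about 1 in 20. There were 4 such tumours. All 4 were +/+ mouse 17, which was the lowest tumour each time. Its family median was 7.23, with the other +/+ tumours at 7.81 to 7.97. Rpl17 was at 6.52, with the others at 7.36 to 7.56, and Rpl39 was at 6.50, with the others at 7.21 to 7.38. The dim paralog Rpl39l was at -6.19, with the others at -3.31 to -2.57. No +/L tumour was marked, although +/L mouse 866 had the lowest family median of all 10, 7.16.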

How the results depend on the processing

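The family's median difference of -0.19 stayed between -0.34 and -0.07 when each mouse was left out in turn, and was 0.16 with normexp and quantile normalisation, 0.12 with quantile normalisation, 0.25 in the deposited table, 0.22 with age as a covariate, and 0.25 within slide 1 and -0.90 within slide 3. Of 83 genes, 22 lay above 0 with the 75th percentile. That count was 58 with normexp and quantile normalisation, 58 with quantile normalisation, 68 in the deposited table, 38 with the 95th percentile, 65 with age, 9 with the slide of the descriptions as a block, 66, 13 and 3 within slides 1, 2 and 3, and 6 to 34 with a mouse left out (6 without 17, 9 without 688, 34 without 866); with every probe taken separately it was 48 of 137. The count at an unadjusted p under 0.05, 3 in the main setting, was 17 with normexp and quantile normalisation, 9 with quantile normalisation and 30 in the deposited table. It was 1 with the median of well-measured probes, without a filter, with either slide block or without mice 866 and 17, 5 with probes well above background on all arrays, 6 with every probe or with limma's trend and robust options, 0 with age and 1 to 16 with a mouse left out (16 without 17, 8 without 688, 7 without 23, 1 without 40, 866, 517, 101 or 19). Genes whose groups did not overlap, 0 in the main setting, numbered 4, 5 and 8 in those settings in the same order, 7 relative to the family median, 1 with every probe, 13 without mice 866 and 17, 1 without mice 20 and 11, and 0 to 13 with a mouse left out. Over all genes tested, 0 passed the adjusted threshold, against 1 with normexp and quantile normalisation, 1 in the deposited table and 0 to 3 with a mouse left out (3 without 517), and none of these is a member. The median SD of 0.39 was 0.23 after quantile normalisation and 0.21 relative to the family median. Among the 29 named genes the sign turned for 14 in the deposited table, 13 within slide 1, 12 with age, 11 and 10 with quantile and with normexp and quantile normalisation, 0 with the slide block of the headers and 0 to 5 with a mouse left out. The cause of these shifts was not tested. Scaling to the 95th percentile and to the family median were chosen after seeing the data. No paired analysis was possible because the groups share no mouse numbers. The number of arrays and 2 dim paralogs near background limit the precision.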
